A study of Mus musculus with 8 samples.

Results

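The genes described here encode the 5 NF-kB subunits (Nfkb1, Nfkb2, Rel, Rela and Relb) and 5 proteins of the inhibitor of NF-kB (IkB) family (Nfkbia, Nfkbib, Nfkbid, Nfkbie and Nfkbiz). They were chosen by symbol, with earlier results of these data known. All 10 were found among the 24453 genes of the deposited table. All 10 also passed the filter on low values, which 15547 genes passed. Libraries were made from mouse T cells sorted as CD4-positive and Foxp3-positive, that is, regulatory T (Treg) cells. There were 3 libraries of T143, 2 of T138 and 3 of wild type (WT).

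T143 and T138 mice come from somatic cell nuclear transfer, a method by which the nucleus of a single T cell gives rise to an animal whose T cells carry that cell's rearranged receptor, so each line stands for 1 clone. Per the series description, T138 models naturally occurring Treg cells and T143 showed signs of agonist-induced development, and the study asked whether the lines are distinct Treg subsets. Every library bears the strain name NOD-Foxp3GFP-Rag1-/-, those of WT as well, and no treatment was given to any mouse per the labels. Rag1 is needed to rearrange receptor genes, so T cells without it need a receptor rearranged beforehand, as in the nuclear-transfer lines. The WT libraries held T cell transcripts, with Cd3e at 7031 to 12487 and Cd4 at 14770 to 17655, so their strain name is doubtful. In comparisons with WT, the line, its single receptor and a difference in Rag1 cannot be told apart. Age and the number of animals behind a library are not in the labels, so p-values reflect how far these libraries scatter, part of which may be technical. In 2 libraries the source name points to another line: T138 for T143 replicate 1, and T143 for WT replicate 1. Their titles and model labels give the groups used here.

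NF-kB proteins are transcription factors that act as dimers. In resting cells the classical IkB proteins, among them the products of Nfkbia, Nfkbib and Nfkbie, hold the dimers in the cytoplasm. Signals from the T cell receptor or from receptors of the tumour necrosis factor family activate IkB kinase, which marks these inhibitors for degradation and frees the dimers. Nfkb1 and Nfkb2 encode precursors that are processed to the DNA-binding subunits p50 and p52. Nfkbid (IkBNS) and Nfkbiz (IkB zeta) encode nuclear family members that bind NF-kB on DNA and modulate transcription. In Treg cells, Rel (c-Rel) is known for its role in thymic development and in switching on Foxp3, and Nfkbid has also been linked to Foxp3 induction in mice.

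The libraries differed in transcripts of other cells. Recovered depth ran from 7834343 to 22636489 reads, and the lowest read number behind any of the 10 genes was 248. Foxp3 was at 3920 to 8694 in T143 cells, 41161 and 41854 in T138 cells and 29773 to 36362 in WT. Values throughout are normalised read counts unless said otherwise. A list of 10 neutrophil markers, with none at 0 in any T143 or T138 library, took 0.585 to 3.58% of all signal in T143 cells, 0.154 and 0.0269% in T138 cells and 0.000225 to 0.005% in WT, where 2 to 8 of the markers were at 0. A list of 12 dendritic cell and macrophage markers took 0.0984 to 0.318% in T143 cells, 0.675 and 0.504% in T138 cells and 0.00889 to 0.0123% in WT. Xist, transcribed in females, was at 19143 to 24992 in T143, at 2.95 and 0 in T138 and at 0 to 130 in WT, and the Y-linked Ddx3y was at 0 to 1.27 in T143 cells, 3634 and 3175 in T138 cells and 2094 to 3018 in WT. The sex and the line of the T143 cells therefore cannot be told apart. T143 replicate 1 had Xist at 19143 and Ddx3y at 0, and WT replicate 1 had them at 35.1 and 2923. These 2 libraries thus had the sex of the group in their titles, and not that of the line in their source names. Myeloid cells also express NF-kB and IkB genes, and transcripts of other cells cannot be told apart from the line where both differ. In RNA from a sorted population fewer cells of a type and less RNA per cell cannot be told apart. The mean log2 level of the neutrophil markers was 11.9 to 14.6 in T143, 10.2 and 7.97 in T138 and 0.637 to 3.2 in WT, and that of the dendritic and macrophage markers 8.21 to 10.1, 10.7 and 10.5, and 4.84 to 5.27. Both lists thus separated the libraries of each group from those of the others, in T143 against T138 as well as in the comparisons with WT. Fits with either level as a covariate are given below for T143 against T138.

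Levels were first compared between genes, per kilobase of transcript. Nfkbia had the highest level of the 10 genes in each group, at 2168 ± 279 per kb in T143 (n = 3), 7227 ± 26 in T138 (n = 2) and 2900 ± 573 in WT (n = 3), as mean ± SD. Nfkb1 followed with 1375 ± 53.7 per kb in T143 cells, 1655 ± 95.5 in T138 cells and 1925 ± 136 in WT. Rel was the lowest of the 10 in each group, at 79.1 ± 11.3, 70.4 ± 10.4 and 144 ± 20.4 per kb in T143, T138 and WT. These levels rest on 1 transcript length per gene, and that of Rel (7.466 kb) was the longest. By mean normalised read count Rel lay above Nfkbib in WT (1075 against 564). It lay below Nfkbib in T143 (590 against 658) and T138 (526 against 620). The middle of the order differed between groups. In T143, Nfkbid, Nfkbiz and Relb lay close together (409.5 ± 15.4, 380 ± 57.3 and 374 ± 38.2 per kb), and Nfkbib (319 ± 53.4) and Nfkbie (306 ± 19) did not differ beyond their spread. In T138, Nfkbiz (1423 ± 11.5 per kb) and Nfkbid (1196 ± 64.6) both stood above Rela (1063 ± 58.2). In WT, Nfkbiz (820.5 ± 101), Nfkbid (779 ± 108) and Nfkb2 (734 ± 64.4) did not differ beyond their spread, and they lay below Rela (1070 ± 115).

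The balance of IkB to subunit transcripts set T138 apart from the other groups. The summed level per kb of the 5 IkB genes was 1.11, 1.08 and 1.24 times that of the 5 subunit genes in T143 cells, 2.53 and 2.56 times in T138 cells and 1.36, 1.12 and 1.09 times in WT. The subunit sums were 3252, 3034 and 3118 per kb in T143 cells, 4222 and 4190 in T138 cells and 4305, 4118 and 4905 in WT, so T143 lay below both other groups while T138 fell among the WT libraries. The IkB sums were 3597, 3272 and 3880 per kb in T143 cells, 10693 and 10732 in T138 cells and 5848, 4593 and 5324 in WT, with no overlap between any 2 groups. Within the subunit sum Nfkb1 made up 42.5 to 45.1% in T143 cells, 37.6 and 41.1% in T138 cells and 42.4 to 44.8% in WT. Rel took 2.03 to 2.87% in T143 cells, 1.49 and 1.86% in T138 cells and 2.87 to 4.03% in WT. Within the IkB sum Nfkbia took 57.2 to 62.6% in T143 cells, 67.4 and 67.5% in T138 cells and 50.2 to 59% in WT, while Nfkbib took 7.63 to 10.6% in T143 cells, 3.17 and 2.45% in T138 cells and 4.13 to 5.74% in WT. These shares are descriptions without a test.

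**Figure D1:**
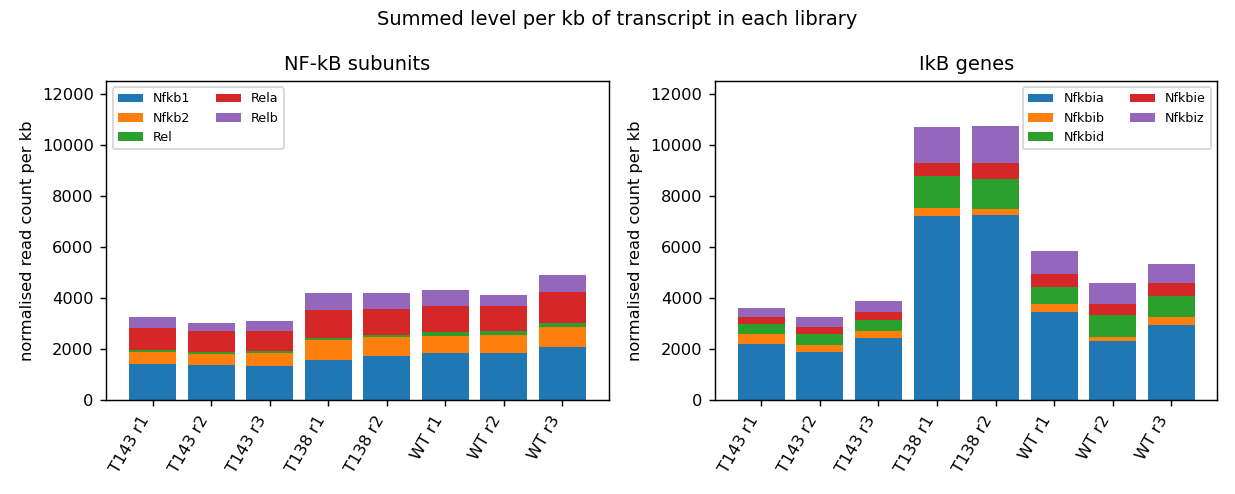
Stacked bars show, for each library, the level of the 5 NF-kB subunit genes (left) and the 5 IkB genes (right) in normalised read counts per kb of transcript, with T143, T138 and WT libraries from left to right (r, replicate). The IkB bars of T138 stand at 10693 and 10732 per kb, above all others, and most of their height is Nfkbia.

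The inhibitor genes parted T143 from T138 most widely. Nfkbia, which encodes IkB alpha, the inhibitor that NF-kB itself induces in a feedback loop (chromosome 12, 55489409 to 55492647, GRCm38), was at 3477, 2956 and 3832 in T143, against 11375 and 11433 in T138. Every T143 library lay below both T138 libraries, and the gene fell by 1.74 ± 0.18 on the log2 scale in T143 (SE, limma, adjusted p = 0.000276), to 0.298 times the T138 level. Nfkbiz (chromosome 16, 55811375 to 55838954) was at 1296, 1667 and 1733 in T143, against 5822 and 5889 in T138, a log2 change of -1.91 ± 0.17 (adjusted p = 0.000134). Nfkbid (chromosome 7, 30421731 to 30428749) was at 804, 867 and 834 in T143, against 2532 and 2346 in T138, a log2 change of -1.55 ± 0.16 (adjusted p = 0.000247). These 3 genes ranked 94, 34 and 87 by p among the 15547 genes tested. In the T143 libraries with a neutrophil share of 0.585, 0.989 and 3.58%, Nfkbiz was at 1296, 1667 and 1733, Nfkbia at 3477, 2956 and 3832 and Nfkbid at 804, 867 and 834. In the T138 libraries with 0.154 and 0.0269%, Nfkbiz was at 5822 and 5889, Nfkbia at 11375 and 11433 and Nfkbid at 2532 and 2346. The dendritic and macrophage share was 0.0984 to 0.318% in T143, against 0.675 and 0.504% in T138. With the dendritic and macrophage level as a covariate the log2 changes were -1.84 for Nfkbia, -1.70 for Nfkbiz and -1.43 for Nfkbid, and with the neutrophil level -1.54, -2.06 and -1.80. All 3 genes passed in both fits (limma, adjusted p between 0.00482 and 0.0207). Both marker levels separated T143 from T138, so covariate and line cannot be told apart in these fits.

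Of the other classical inhibitors, Nfkbie (IkB epsilon, chromosome 17, 45555700 to 45563169) was at 740, 700 and 792 in T143, against 1191 and 1564 in T138. The groups did not overlap and the gene fell by 0.88 ± 0.18 (limma, adjusted p = 0.00682). Without T138 replicate 2 the change was -0.68 and the call was lost (adjusted p = 0.0777). With 1 T138 library left out, the remaining one is assumed to vary like the other groups. The call was also lost with the dendritic and macrophage covariate (-0.90, adjusted p = 0.0623) and with the neutrophil covariate (-0.625, adjusted p = 0.228). Nfkbib (IkB beta, chromosome 7, 28758251 to 28766644) was at 784, 580 and 610 in T143, against 698 and 543 in T138. Here the libraries of both lines overlapped, and the 95% interval of the log2 change ran from -0.50 to 0.67 (adjusted p = 0.84). Nfkbib overlaps Sirt2 and Ccer2 on the other strand, and since the sources used here do not say how strand was treated in counting, its level is uncertain.

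**Figure D2:**
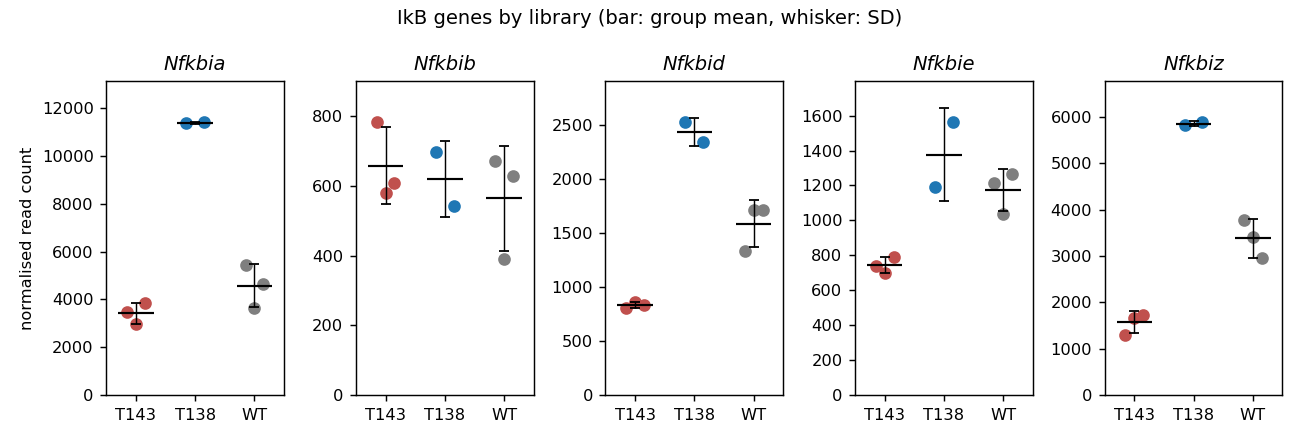
Points give the normalised read count of each IkB gene in each library, for T143 (n = 3), T138 (n = 2) and WT (n = 3) from left to right, with the group mean as a bar and the SD as whiskers. Nfkbia, Nfkbid and Nfkbiz stand apart in T138 from both other groups, while Nfkbib overlaps among all 3.

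Upstream sequences of inhibitor and subunit genes are shown because NF-kB is known to switch on several of its own genes, and they show where letters of the kB site occur. RefSeq promoter windows (GRCm38.p6, 300 bases each) were found for 7 of the 10 genes (Nfkb2, Rel, Rela, Nfkbia, Nfkbib, Nfkbid and Nfkbie), with 11 windows in all. They were searched on both strands for a kB-like motif of 10 bases, which reads GG, any 3 bases, TT, any base and CC. It occurs in 15.3% of 32851 windows of all genes, and a stricter form with G also as the third base occurs in 4.79%. Of the 11 windows, 6 held the first motif. By gene these were Nfkb2, Rel, Nfkbia and Nfkbid, so 4 of the 7 genes. All 6 windows also held the stricter motif, which is contained in the first, and 2 of the Nfkb2 windows overlap and share a match. Capitals below mark matches to the first motif on either strand, and the sequences run 5′ to 3′ on the gene's strand, ending at the base before the annotated exon.
Nfkbia, chr12:55492648-55492897, minus strand: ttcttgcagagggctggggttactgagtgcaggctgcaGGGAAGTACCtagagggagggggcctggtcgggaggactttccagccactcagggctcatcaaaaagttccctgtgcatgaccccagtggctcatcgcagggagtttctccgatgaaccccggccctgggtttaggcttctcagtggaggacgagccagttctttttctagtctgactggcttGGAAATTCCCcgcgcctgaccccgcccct
Nfkbid, chr7:30422156-30422405, plus strand, before the second of its annotated starts: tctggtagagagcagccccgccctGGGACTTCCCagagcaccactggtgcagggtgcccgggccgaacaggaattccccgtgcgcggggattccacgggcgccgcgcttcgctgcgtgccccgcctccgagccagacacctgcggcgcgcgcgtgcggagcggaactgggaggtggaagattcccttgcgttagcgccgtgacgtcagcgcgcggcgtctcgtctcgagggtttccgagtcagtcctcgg
Rel, chr11:23770971-23771219, minus strand: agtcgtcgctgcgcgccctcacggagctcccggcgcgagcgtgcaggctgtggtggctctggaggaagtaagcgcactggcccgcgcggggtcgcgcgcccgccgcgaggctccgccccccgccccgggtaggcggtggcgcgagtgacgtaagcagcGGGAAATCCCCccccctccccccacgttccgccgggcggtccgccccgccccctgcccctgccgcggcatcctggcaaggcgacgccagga
The Nfkbia match GGAAATTCCC has its first base at -29, counted with the start as 0, and reads GGGAATTTCC on the other strand. The Nfkbid match GGGACTTCCC begins at -226. In Rel, GGGATTTCCC and GGGGATTTCC overlap on the other strand at -92 and -91. The 3 Nfkb2 windows held GGGAATTCCC, overlapping GGGGCTTTCC and GGGCTTTCCC, GGGACTTTCC and the looser GGATCTTACC. The windows of Rela, Nfkbib and Nfkbie held neither motif. Matches are a description of these letters and not of binding.

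Among the subunits the differences of T143 from T138 were smaller. Nfkb2, the p52 precursor of the alternative pathway (chromosome 19, 46300994 to 46312400), was at 1489, 1423 and 1689 in T143, against 2474 and 2352 in T138, a log2 change of -0.66 ± 0.15 (limma, adjusted p = 0.0106). Its dimer partner Relb (chromosome 7, 19606217 to 19629438) was at 888, 728 and 853 in T143, against 1493 and 1360 in T138, a log2 change of -0.80 ± 0.22 (adjusted p = 0.027). For both genes every T143 library lay below every T138 library. Without T138 replicate 1 or 2 the calls were lost at changes of similar size, with -0.62 and -0.69 for Nfkb2 (adjusted p = 0.0666 and 0.0603) and -0.73 and -0.86 for Relb (adjusted p = 0.133 and 0.101). Relb also did not pass without T143 replicate 2 (-0.71, adjusted p = 0.092) or without both libraries of doubtful source name (-0.85, adjusted p = 0.0603). Relb is also highly expressed in dendritic cells, whose marker list took a larger share in T138. With that list's level as a covariate the change was -0.91 for Relb (adjusted p = 0.11) and -0.61 for Nfkb2 (adjusted p = 0.107). With the neutrophil level it was -0.49 for Relb (adjusted p = 0.458) and -0.82 for Nfkb2 (adjusted p = 0.0815), so neither passed. Nfkb2 overlaps Psd and a long noncoding RNA on the other strand.

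The subunits of the classical pathway did not pass in that comparison. Rela (chromosome 19, 5637442 to 5648134), which carries the main transactivation domain, was at 2378, 2161 and 2124 in T143, against 2999 and 2775 in T138. Nfkb1 (chromosome 3, 135584655 to 135691969) was at 5899, 5627 and 5460 in T143, against 6537 and 7094 in T138. Both were without overlap, with log2 changes of -0.38 ± 0.14 (limma, adjusted p = 0.0846) and -0.27 ± 0.13 (adjusted p = 0.173). Nfkb1 overlaps the predicted gene Gm43430. Rel (chromosome 11, 23736847 to 23770969) was at 494, 650 and 627 in T143, against 470 and 581 in T138, with overlap and a 95% interval from -0.29 to 0.62 (adjusted p = 0.598).

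Counted together, 6 of the 10 genes were lower in T143 than in T138 cells and 0 were higher, 2 of them subunits and 4 inhibitors. Of all genes tested 10.2% were lower and 10.8% higher, 21.0% in either direction. The median log2 change was -0.38 over the subunits, -1.55 over the inhibitors and 0.15 over all genes. In 8 of the 10 genes the groups did not overlap, all with T143 lower, as in 23.7% of all genes tested (51.7% in either direction). Quantile normalization moved the median of all genes to 0.01, and 6 genes were again called lower. Without T138 replicate 1 the number called was 4, and without T138 replicate 2 it was 3. With either marker level as a covariate 3 were called. Fewer genes were also called in all without either T138 library and with either covariate. These calls over all genes numbered 1223 with the dendritic and macrophage covariate and 1095 with the neutrophil covariate, against 3272 in the main fit.

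**Figure D3:**
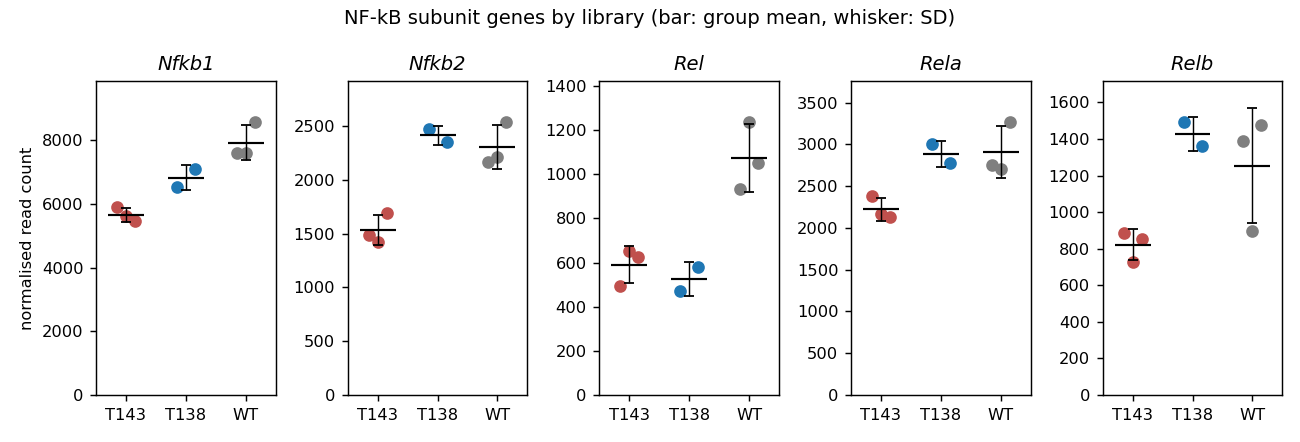
Points give the normalised read count of each NF-kB subunit gene in each library, for T143 (n = 3), T138 (n = 2) and WT (n = 3) from left to right, with the group mean as a bar and the SD as whiskers. Rel is lower in both lines than in WT, and the other 4 genes are lowest in T143.

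T138 was next compared with WT. The feedback inhibitor and both nuclear IkB genes were higher in T138, and Rel was lower. Nfkbia, at 11375 and 11433 in T138, was at 5446, 3641 and 4640 in WT, a log2 change of 1.34 ± 0.18 (limma, adjusted p = 0.00156) or 2.53-fold. Nfkbiz, at 5822 and 5889 in T138, was at 3772, 3413 and 2944 in WT (log2 change 0.80 ± 0.17, adjusted p = 0.013). Nfkbid, at 2532 and 2346 in T138, was at 1336, 1715 and 1716 in WT (0.63 ± 0.16, adjusted p = 0.0309). For these 3 genes both T138 libraries lay above all WT libraries. Rel was at 470 and 581 in T138, against 935, 1238 and 1053 in WT, and fell by 1.03 ± 0.21 (adjusted p = 0.0101), to 0.49 times the WT level. Both T138 libraries lay below all WT libraries.

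Among these 4 genes, only Nfkbia kept its call whichever library was left out. Rel did not pass without T138 replicate 1 (limma, adjusted p = 0.0816), and Nfkbiz did not pass without T138 replicate 1 (0.0761), T138 replicate 2 (0.0905) or WT replicate 3 (0.0506). Nfkbid lost its call without WT replicate 1 (0.0736) or 3 (0.0526), without T138 replicate 1 (0.156) or 2 (0.109), without T143 replicate 2 (0.056), and after median centring (0.073). The number called ranged from 1 to 4 over these fits and was 1 without T138 replicate 1 and 2 without T138 replicate 2 or WT replicate 3.

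The remaining 6 genes did not pass for T138 against WT. Relb, at 1493 and 1360 in T138, was at 1390, 897 and 1477 in WT, and Nfkb2, at 2474 and 2352 in T138, was at 2165, 2214 and 2538 in WT. In both the T138 values overlapped those of WT. The 95% intervals of the log2 change were -0.27 to 0.70 for Relb, -0.25 to 0.39 for Nfkb2, -0.32 to 0.31 for Rela, -0.51 to 0.07 for Nfkb1, -0.17 to 0.61 for Nfkbie and -0.42 to 0.75 for Nfkbib. Nfkb1 was the one of these 6 whose groups did not overlap, with T138 (6537 and 7094) below WT (7605, 7596 and 8573).

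Of the 10 genes, 3 were higher and 1 lower in T138 than in WT, against 5.74% higher and 5.30% lower over all genes, or 11.0% in either direction. The median log2 change was 0.63 over the inhibitors, -0.01 over the subunits and -0.06 over all genes. Groups did not overlap in 3 genes that were higher and 2 that were lower, against 17.7 and 19.8% of all genes (37.5% in either direction). In the WT libraries with a dendritic and macrophage share of 0.0123, 0.00889 and 0.00978%, Nfkbia was at 5446, 3641 and 4640. Whether that share bears on Nfkbia was not tested. With the dendritic and macrophage or the neutrophil level as a covariate limma called 0 of the 10 genes, and 1 and 2 had an unadjusted p under 0.05. Over all genes these fits called 0 and 0, and 5.27 and 13.4% had an unadjusted p under 0.05.

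T143 was also compared with WT, which shares its WT libraries with the preceding comparison. Here 3 of the 5 subunits and 3 of the 5 inhibitors were lower. Nfkb1, at 5899, 5627 and 5460 in T143, was at 7605, 7596 and 8573 in WT, and fell by 0.48 ± 0.12 (limma, adjusted p = 0.0137). Nfkb2, at 1489, 1423 and 1689 in T143, was at 2165, 2214 and 2538 in WT (log2 change -0.59 ± 0.13, adjusted p = 0.00906). Rel, at 494, 650 and 627 in T143, was at 935, 1238 and 1053 in WT (-0.86 ± 0.18, adjusted p = 0.00733). The T143 libraries lay below all WT libraries for each of these 3 subunits. Rel was thus lower than in WT in both lines, at 0.549 times the WT level in T143.

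Nfkbiz was at 1296, 1667 and 1733 in T143, against 3772, 3413 and 2944 in WT, and fell by 1.11 ± 0.15 (limma, adjusted p = 0.000756), to 0.462 times the WT level. Nfkbid was at 804, 867 and 834 in T143, against 1336, 1715 and 1716 in WT (log2 change -0.92 ± 0.14, adjusted p = 0.00152). Nfkbie was at 740, 700 and 792 in T143, against 1214, 1038 and 1268 in WT (-0.65 ± 0.16, adjusted p = 0.0133). All 3 were without overlap. Nfkbiz and Nfkbid thus took the order T143, WT, T138 from low to high, with no library out of place, and each of the 3 comparisons passed the threshold, that of T138 with WT with the losses given above.

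Nfkbia did not pass in T143 against WT, with 3477, 2956 and 3832 in T143 overlapping 5446, 3641 and 4640 in WT (log2 change -0.41 ± 0.16, limma, adjusted p = 0.099). Without WT replicate 2 it passed as lower (adjusted p = 0.0298). Rela and Relb lay just above the threshold (adjusted p = 0.0525 and 0.055), with T143 below every WT library in both. Rela passed after median centring (adjusted p = 0.0403) and with DESeq2 (0.0479). Relb passed without WT replicate 2 (0.00747) and with the replicate number as a block (0.0261). Nfkb1 did not pass without WT replicate 3 (0.0537), nor did Nfkbie without T143 replicate 2 (0.0569) or WT replicate 3 (0.0552) or without both libraries of doubtful source name (0.0785). Nfkbib had a 95% interval from -0.28 to 0.77.

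Of the 10 genes, 6 were lower and 0 higher in T143 than in WT, against 12.1% lower and 11.7% higher over all genes, or 23.8% in either direction. The median log2 change was -0.58 over the subunits, -0.65 over the inhibitors and 0.05 over all genes. In 8 genes the groups did not overlap, with T143 lower, as in 20.7% of all genes (40.7% in either direction). The number called was 8 without WT replicate 2, 4 without WT replicate 3 and between these when any other library was left out. With the dendritic and macrophage or the neutrophil covariate limma called 0, and 3 and 1 had an unadjusted p under 0.05. Over all genes these fits called 6 and 0, and 7.85 and 13.2% had an unadjusted p under 0.05.

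**Figure D4:**
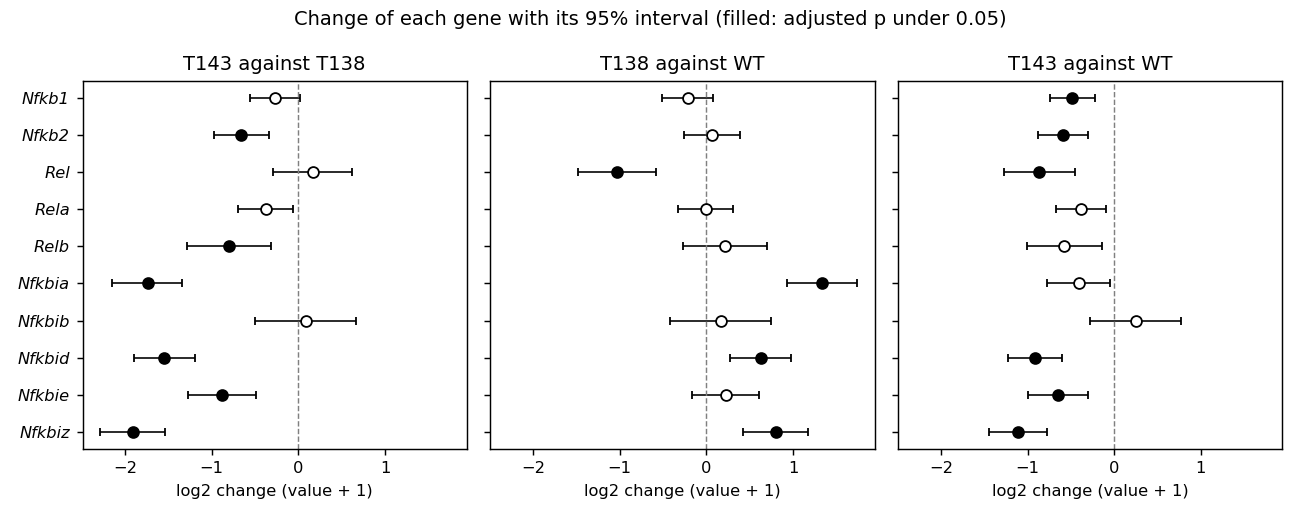
Points give the log2 change of each gene on the log2(value + 1) scale with its 95% interval from limma, for T143 against T138, T138 against WT and T143 against WT from left to right. Filled points passed an adjusted p of 0.05. Nfkbia, Nfkbid and Nfkbiz lie left of 0 for T143 against T138 and right of 0 for T138 against WT, and Rel lies left of 0 in both comparisons with WT.

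Genes upstream and around NF-kB were read from 6 lists of 69 different genes, all of them tested and none among the 10. For T143 against T138, 21 were lower and 4 higher, beside 10.2% lower and 10.8% higher over all genes (21.0% in either direction). The median log2 change was -0.27 over the 69 and 0.15 over all genes. The called genes numbered 16 without T138 replicate 1 and 11 without T138 replicate 2. The kinase and adaptor list held 7 lower and 0 higher of 19. Ikbkb, the catalytic IkB kinase subunit beta, was at 3706, 3999 and 3262 in T143, against 6082 and 6424 in T138 (log2 change -0.78 ± 0.16, limma, adjusted p = 0.00732), a call lost without T138 replicate 2 (0.0696) and with the dendritic and macrophage covariate (0.0704) or the neutrophil covariate (0.107). Traf1, an adaptor of tumour necrosis factor receptors, changed by -1.04 ± 0.17 (adjusted p = 0.0021), and did not pass with the neutrophil covariate (0.0622). Tab2, an adaptor of the kinase TAK1, changed by -0.74 ± 0.16 (adjusted p = 0.0088), and lost its call without T138 replicate 1 (0.051) or 2 (0.0721) and with the dendritic and macrophage covariate (0.138).

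The ubiquitin editors, which restrain or promote the pathway through ubiquitin chains, held 3 lower and 0 higher of 10. Tnfaip3 (A20), a feedback inhibitor, was at 1777, 1868 and 1948 in T143, against 23736 and 25603 in T138, a log2 change of -3.73 ± 0.15 (limma, adjusted p = 3.26e-07). Its partner Tnip1 changed by -0.99 ± 0.15 (adjusted p = 0.00157) and Sharpin, part of the linear ubiquitin ligase, by -0.78 ± 0.15 (adjusted p = 0.00475). With the neutrophil covariate neither passed (adjusted p = 0.1 for Tnip1 and 0.113 for Sharpin). The receptor list held 6 lower and 3 higher of 19. Il1rl1, the interleukin-33 receptor, changed by -4.27 ± 0.40 (adjusted p = 0.000242), the signalling kinase Irak2 by -1.47 ± 0.17 (adjusted p = 0.000426) and Tnfrsf4 (OX40) by -2.53 ± 0.30 (adjusted p = 0.000487). The target gene list held 7 lower and 0 higher of 19. It shares genes with the other lists, among them Tnfaip3, Tnip1 and Traf1. Over all genes 10.2% were lower and 10.8% higher in T143 against T138 (21.0% in either direction). Bcl3 and Nfkbil1, which also encode IkB-like proteins, did not pass in any comparison. Bcl3 was at 1091, 1275 and 1387 in T143 cells, 1704 and 1159 in T138 cells and 966, 986 and 1230 in WT.

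For T138 against WT 11 of the 69 were higher and 5 lower, beside 5.74% higher and 5.30% lower over all genes (11.0% in either direction), with 4 higher and 2 lower among the 19 target genes. Tnfaip3 was at 23736 and 25603 in T138, against 4745, 3902 and 3675 in WT (log2 change 2.59 ± 0.15, limma, adjusted p = 2.42e-05). Tab2 (0.56 ± 0.16, adjusted p = 0.0442) lost its call without WT replicate 1 (0.114) or 3 (0.0926), without T138 replicate 1 (0.161) or 2 (0.201), and without T143 replicate 2 (0.0747). Il1rl1 rose by 4.77 ± 0.40 (adjusted p = 0.000195), and the costimulatory receptor gene Tnfrsf9 (4-1BB) fell by 2.06 ± 0.25 (adjusted p = 0.000842). Ltbr rose by 6.64 ± 0.93 (adjusted p = 0.00173) from 0, 0 and 1.52 in WT. Without T138 replicate 1 the number of the 69 called was 9, and without T138 replicate 2 it was 7.

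For T143 against WT 21 of the 69 were lower and 5 higher, beside 12.1% lower and 11.7% higher over all genes (23.8% in either direction). Traf1 was at 2191, 1815 and 1887 in T143, against 4239, 5315 and 5837 in WT (log2 change -1.38 ± 0.15, limma, adjusted p = 0.00024). Ikbke, an IkB kinase-related kinase, changed by -0.96 ± 0.15 (adjusted p = 0.00169) and Birc2, a ubiquitin ligase of receptor complexes, by -0.71 ± 0.13 (adjusted p = 0.00363). Tnfaip3 changed by -1.13 ± 0.13 (adjusted p = 0.000357), Tnip1 by -0.999 ± 0.13 (adjusted p = 0.000657) and Sharpin by -0.56 ± 0.13 (adjusted p = 0.0115), the last without a call when T143 replicate 2 was left out (0.0553). Among receptors, Ltbr rose by 7.39 ± 0.83 (adjusted p = 0.000302) from 0, 0 and 1.52 in WT. Tnfrsf9 changed by -1.94 ± 0.22 (adjusted p = 0.00035) and the interleukin-18 receptor chain Il18r1 by -1.75 ± 0.22 (adjusted p = 0.000544).

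The pattern over libraries was also compared among the 10 genes and with all others, as a description over 8 libraries in which those of a group share a line. Nfkbid and Nfkbiz were nearest to each other (Pearson r = 0.956 of log2 values), as were Nfkb2 and Nfkbie (0.921). Nfkbia was nearest to Nfkbiz (0.873) and farthest from Rel (-0.359). Nfkbib followed none of the others closely, with r = 0.247 to its nearest, Relb. The mean standardised profile of the 10 genes was -0.76, -0.996 and -0.79 in T143 cells, 0.68 and 0.64 in T138 cells and 0.46, 0.03 and 0.73 in WT. Of 7601 candidate genes above the median level, Arhgap25 (r = 0.993), Bcl2l1 (0.99), Sharpin (0.986), Ypel3 (0.984) and Cyth4 (0.979) had the profiles most like it. Bcl2l1, which encodes the survival protein Bcl-xL, was at 681, 668 and 675 in T143 cells, 1429 and 1580 in T138 cells and 1411, 1003 and 1613 in WT.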

How the data were processed

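Messenger RNA of 8 libraries was sequenced with a stranded poly(A) kit, per the labels' protocols. STAR 2.5.2b, HOMER 4.8, CASAVA 1.8.2, edgeR and mm10 are named without a role, per the submitters' processing notes. The deposited values are a signal: read counts per gene that the authors divided by 1 factor per library, which gives each a total of 15.59 M units. This was read from the values, of which 100% were whole multiples of a step per library within 0.01. The recovered reads served only the alternatives with edgeR, DESeq2 and limma-voom, and edgeR called 2786, 1344 and 3277 genes for T143 against T138, T138 against WT and T143 against WT. How strand, duplicates and multi-mapped reads were counted: not given in the sources used here.

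Tests used limma 3.58.1 in R 4.3.3 on log2(value + 1), with trend and robust moderation, all 8 libraries in 1 fit by group, and Benjamini-Hochberg adjustment over all 15547 genes that reached 1 or more in 2 libraries or more. Calls are two-sided at an adjusted p under 0.05. Fold changes are on that log2 scale, which understates changes of low genes. The procedure was tested on simulated data. Alternatives used edgeR 4.0.16, DESeq2 1.42.0, other filters, scalings, covariates and left-out libraries.

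The members and lists were chosen with earlier results of these data known. The genes of 1 of the 6 pathway lists are counted in the totals but are not reported here by name. Named were all 10 members, up to 3 called genes of each list with the smallest p, the 2 highest markers of each marker list, and the 5 genes nearest to the members' mean profile. Transcript lengths came from GENCODE M21 (GRCm38) by accession, positions and promoters from RefSeq GRCm38.p6.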

Additional observations from a re-analysis of the deposited data

How the results depend on the processing

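Of the 10 genes, the calls of Nfkbia, Nfkbid and Nfkbiz for T143 against T138 held under all 24 alternatives tried, with log2 changes from -1.84 to -1.54, -1.80 to -1.43 and -2.06 to -1.70. Without a filter on low values, 1962, 900 and 2460 genes were called in all for T143 against T138, T138 against WT and T143 against WT, against 3272, 1716 and 3698, and 16 and 9 pathway genes for T143 against T138 and T138 against WT, against 25 and 16. More genes of near-zero level were tested there.

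With the dendritic and macrophage marker level as a covariate, 3 of the 10 genes, 12 pathway genes and 1223 genes in all were called for T143 against T138. In limma these counts were 0, 0 and 0 comparing T138 to WT, and 0, 0 and 6 comparing T143 to WT. With the neutrophil level they were 3, 9 and 1095 for T143 against T138, and 0, 0 and 0 in each comparison with WT. At an unadjusted p under 0.05, 819 and 2084 genes passed for T138 against WT with the dendritic and the neutrophil covariate, among them 1 and 2 of the 10 members and 4 and 9 pathway genes. For T143 against WT 1220 and 2051 did, with 3 and 1 members and 5 and 6 pathway genes. Without covariates, edgeR called 4 members when T138 was set against WT and 6 when T143 was, and DESeq2 4 and 8. The marker levels separate the libraries of all 3 groups, so this covariate and the group cannot be told apart in any of the comparisons. Under the dendritic covariate the change for T138 against WT turned to -0.13 for Nfkbiz, -0.37 for Tab2 and -0.79 for Ltbr, and under the neutrophil covariate to -0.0479 for Tab2. For T143 against WT, Nfkbie turned to 0.0534 under the neutrophil covariate. None of these passed, and the cause was not tested.

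With single libraries left out, the called members numbered 3 to 6, 1 to 4 and 4 to 8 for T143 against T138, T138 against WT and T143 against WT. Pathway genes numbered 11 to 25, 7 to 15 and 24 to 26, and all genes 1347 to 3668, 757 to 1779 and 2426 to 3558. With the replicate block, 6, 4 and 7 members were called. The labels do not say that a number marks a shared animal, and libraries of the same number did not deviate together (correlations between -0.0623 and 0.0548). The T138 group has 2 libraries, which limits each comparison with it.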

Other observations

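Ltbr, Ier3 and Cd83, genes of the NF-kB lists, are given here beside the shares of myeloid transcripts. Ltbr, the lymphotoxin beta receptor, known mainly from stromal and myeloid cells, was at 73.6, 248 and 635 in T143 cells, 144 and 127 in T138, with 0, 0 and 1.52 in WT. The neutrophil share was 0.585, 0.989 and 3.58% in the same T143 libraries, 0.154 and 0.0269% in T138 and 0.000225 to 0.005% in WT. Ier3, an early response gene, was at 79.6, 127 and 428 in T143 cells, 976 and 695 in T138 cells and 8.27, 17 and 5.32 in WT. Cd83, a target gene found on activated lymphocytes and dendritic cells, was at 153, 261 and 278 in T143 cells, 456 and 389 in T138 cells and 2313, 1848 and 2706 in WT. The dendritic and macrophage share was 0.0984 to 0.318% in T143, 0.675 and 0.504% in T138 and 0.00889 to 0.0123% in WT. The part of other cells in these values was not tested.

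Markers of further cell types were low or uneven. S100a9 was at 31225 to 198585 in T143 cells, 7989 and 1218 in T138 cells and 4.56 to 33.8 in WT, with S100a8 at 19716 to 134751, 3119 and 356, and 0 to 7.45. Cd74 was at 3007 to 12614 in T143 cells, 41839 and 31846 in T138 cells and 776 to 844 in WT, and Lyz2 at 7897 to 25398, 1858 and 695, and 27.7 to 118. The B cell list took at most 0.00365% of signal in any library, with Cd79b at 31.8 to 314 and Blk at 0 to 64.7 over all 8. The NK cell list took at most 0.0347%, with Tyrobp at 896 to 4415 in T143 cells, 1771 and 1074 in T138 cells and 11.7 to 49 in WT, and Eomes at 283 to 584, 57.1 and 104, and 197 to 358. The erythroid list took at most 0.0899%, with Hbb-bs at 818 to 4443 in T143 cells, 363 and 815 in T138 cells and 81.3 to 217 in WT, and Hba-a1 at 480 to 2091, 348 and 559, and 31.9 to 126. A list of 8 T cell markers, 7 of them found and Foxp3 among these, took 0.267 to 0.356% of signal in T143 cells. It took 0.637 and 0.632% in T138 cells and 0.583 to 0.66% in WT. Of the 7, 3 were lower and 0 higher in T143 than in T138, beside 10.2% lower and 10.8% higher over all genes. The 3 were Foxp3, Il2ra and Ctla4. Il2ra was at 909 to 1414 in T143, 8631 and 7099 in T138 and 12116 to 13734 in WT. Ctla4 was at 601 to 2978, 10221 and 11591, and 8760 to 9632. Cd3d, Cd3e, Cd3g and Cd4 did not pass. Cd3d was at 5243 to 11288 in T143, against 3595 and 4002 in T138. Cd3e was at 5213 to 8733, against 11130 and 11899, and Cd3g at 7235 to 14140, against 11081 and 10525. Cd4 was at 10922 to 15941 in T143 cells, 12235 and 12820 in T138 cells and 14770 to 17655 in WT.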
